A study of Mus musculus with 5 samples.

Results

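The Notch pathway was followed through 9 genes, chosen by name as receptors, mediators and targets of the pathway: Notch1, Notch2, Adam10, Rbpj, Maml1, Maml2, Hes1, Dtx1 and Nrarp. These genes were chosen with earlier results of these data known. All 9 were found among the 27179 gene identifiers of the count table, and 8 passed the filter on low counts. Messenger RNA had been sequenced from lymphocytes of wild type C57BL/6 mice. The 3 ILC3 libraries, from group 3 innate lymphoid cells, were sorted as CD45+CD3- cells positive for CD127 and for a GFP reporter of RORγt, the lineage factor. The 2 CD4 T libraries were sorted as CD45+CD3+CD4+. No treatment, age or tissue is given for a library, and the series as a whole concerns the intestine. The labels name 3 mice but do not say which mouse gave which library, so the p-values measure the spread between these libraries, and part of that spread may be technical.

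Notch receptors are cell surface proteins that are cut when a ligand on a neighbouring cell pulls on them. ADAM10 makes the outer cut and gamma-secretase the cut within the membrane, after which the intracellular part enters the nucleus, joins the DNA-binding factor RBPJ and recruits a Mastermind coactivator. Without it, RBPJ sits with corepressors. Notch signals commit early progenitors to the T cell lineage, and they also act in the development of innate lymphoid cells. Transcript counts do not measure cutting of the receptors.

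The libraries held from 15123715 to 25956023 counts. Levels are given as CPM, counts scaled by library size after TMM adjustment, and a count of 0 allows up to 3 counts, or 0.108 to 0.192 CPM depending on the library (counting error only). The ILC3 label matched its markers: all 9 ILC3 genes examined were higher in ILC3, with a summed level of 28762 to 31682 CPM against 957 to 1778 CPM in CD4 T. T cell genes summed to 494 to 1083 CPM in ILC3 and to 1399 to 3293 CPM in CD4 T, with 4 of 10 lower in ILC3 and 0 higher. Of the genes for CD3, by which the cells were sorted, Cd3d was called lower in ILC3 (edgeR adjusted p = 0.0162). Cd3e, Cd3g and Cd247 were not called (edgeR adjusted p = 0.233, 0.254 and 0.435), and Cd3e and Cd3g overlapped between the groups. Cd3g was 362, 470 and 161 CPM in ILC3 replicates 1 to 3 and 280 and 1310 CPM in CD4 T replicates 1 and 2. The CD4 T libraries also held transcripts of other cells. Plasmacytoid dendritic cell genes summed to 4036 and 4587 CPM there against 259 to 652 CPM in ILC3 (9 of 10 lower in ILC3), macrophage and monocyte genes to between 2140 and 3095 against 172 to 220 CPM (8 of 10 lower), conventional dendritic cell genes to between 249 and 406 against 42.3 to 78.3 CPM (4 of 6 lower, 1 higher), and both CD8 genes were lower in ILC3 (582 to 622 against 0 to 1.23 CPM). Of these genes, Cd6 and Clec10a had no count in ILC3. The CD4 T label did not match its markers as clearly as the ILC3 label did. In CD4 T replicates 1 and 2, Cd4 was 142 and 90.1 CPM. Both CD8 genes were above it, Cd8a at 245 and 189 CPM and Cd8b1 at 336 and 433 CPM, and also per length of transcript. The share of CD4 T cells in these libraries was not tested. B and plasma cell genes were abundant in all libraries (18023 to 100710 CPM in ILC3, 20965 to 34352 CPM in CD4 T), with Pax5 at 0 throughout and 0 of 6 tested genes called. Epithelial genes summed to 11.2 to 15.4 CPM in ILC3, with Krt8 and Cdh1 at 0, and to 35.7 and 1929 CPM in CD4 T, and 1 of 3 tested was lower in ILC3. The gene called was Lyz1, at 11.5 CPM in CD4 T replicate 1 and 1881 CPM in replicate 2. Most of the sum of 1929 CPM thus came from 1 gene in 1 library. Stromal and endothelial genes summed to 33.5 to 41.8 CPM in ILC3 and 22.7 to 35.0 CPM in CD4 T, with 0 of 2 tested genes called. Most of each sum came from Pecam1, at 40.4, 30.6 and 35.9 CPM in ILC3 and 22.7 and 19.5 CPM in CD4 T. Every difference below is therefore one between these libraries, and the part of other cells in it was not tested. In sorted pools, fewer cells expressing a gene and less of its RNA per cell cannot be told apart.

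One member of the pathway changed between the groups: Notch1 was lower in ILC3. The other 7 tested members did not pass the test, and Nrarp was too low to be tested. Thus 1 of 8 members was called lower, beside 7.21% of all 12747 tested genes, and 0 of 8 higher, beside 6.46%; in either direction 13.7% of all genes were called. At this size the members' count was near the background and is no result about the group. The median log2 difference of the 8 members, ILC3 over CD4 T, was -0.69, and that of all tested genes was -0.10. The libraries of the groups did not overlap for 2 of the 8 members, Notch1 and Maml2, beside 55.0% of all tested genes.

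**Figure D1:**
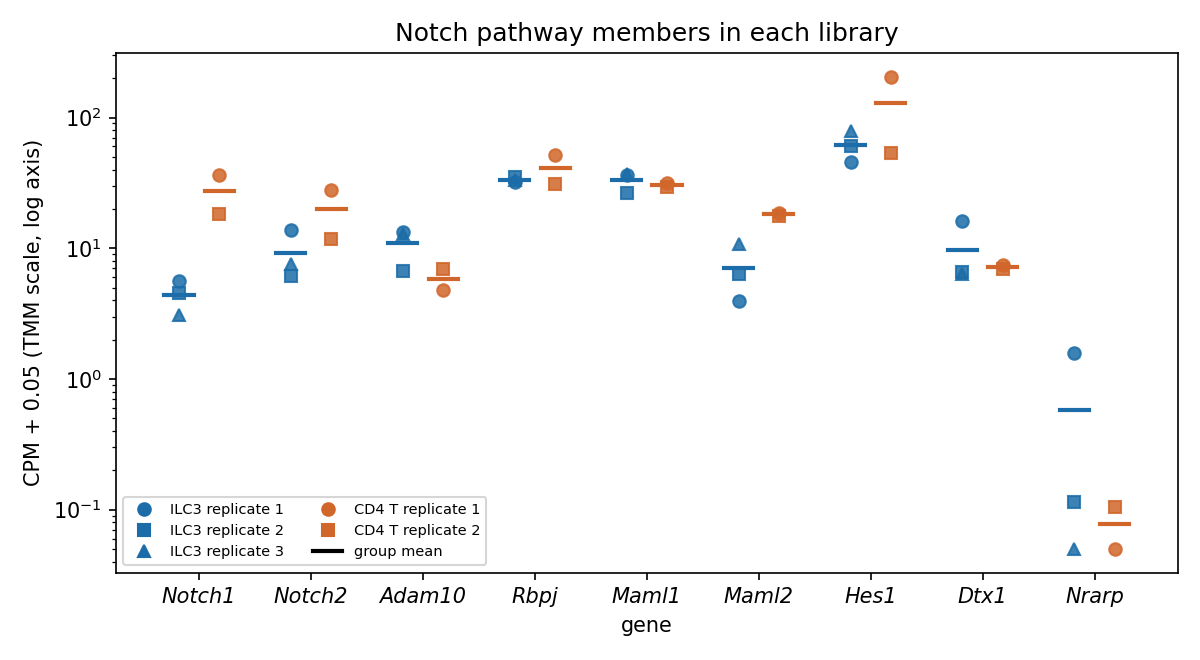
CPM plus 0.05 on a log axis for the 9 genes, with a point for each of the 3 ILC3 (blue) and 2 CD4 T (orange) libraries and a bar for each group mean. Notch1 lay between 3.04 and 5.52 CPM in ILC3 and at 18.3 and 36.5 CPM in CD4 T, while most other members overlapped between the groups.

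Notch1 (NCBI gene 18128, chromosome 2, 26457902 to 26503822 in GRCm38) encodes the receptor that drives T lineage commitment. It stood at 5.52, 4.48 and 3.04 CPM in ILC3 replicates 1 to 3, and at 36.5 and 18.3 CPM in CD4 T replicates 1 and 2. These values rest on 153, 70 and 52 counts in ILC3 and 921 and 338 counts in CD4 T. Every ILC3 library was below both CD4 T libraries, and the lower CD4 T library was above the highest ILC3 library by more than the whole range of the ILC3 group. The mean of ILC3 was 4.35 ± 1.25 CPM (SD, n = 3), and that of CD4 T was 27.4 ± 12.9 CPM (SD, n = 2). On the log2 scale ILC3 was at -2.65 relative to CD4 T (SE 0.53, edgeR adjusted p = 0.0255), which is 6.29-fold lower. The call rested on all libraries but CD4 T replicate 2. A fit that leaves out a CD4 T library has only 1 left, which is assumed to vary as the ILC3 libraries do, here and for the genes below. Removing ILC3 replicate 1, 2 or 3 ended it (edgeR adjusted p = 0.0659, 0.0819 and 0.0671), as did removing CD4 T replicate 1 (log2 -2.06, edgeR adjusted p = 0.135). It was also lost with the replicate number as a block (log2 -2.38, edgeR adjusted p = 0.115). The block leaves fewer residual degrees of freedom, and ILC3 replicate 3 has no CD4 T library of its number. That library then adds nothing to the difference, here and for the genes below. Across the alternatives the smallest adjusted p-value was 7.65e-05, in the DESeq2 Wald test. That test called more of all 12747 genes, 1914 higher and 1858 lower, against 824 and 919 in edgeR, which also holds for the genes below.

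Notch2 (NCBI gene 18129, chromosome 3, 98013538 to 98150367) encodes the paralogous receptor, known for its role in marginal zone B cells and in splenic and intestinal dendritic cells. It was 13.7, 6.09 and 7.48 CPM in ILC3, then 27.9 and 11.8 CPM in CD4 T. CD4 T replicate 2 fell inside the ILC3 range, so the groups overlapped. The log2 difference of -1.12 (SE 0.60) missed the threshold (edgeR adjusted p = 0.240), and it was -0.36 without CD4 T replicate 1 and -1.60 without CD4 T replicate 2.

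The windows before the start sites of both receptor genes, and of Rbpj below, are shown because the receptors carry the main comparison and Rbpj is the member with a pair of RBPJ motifs in 1 window. They come from RefSeq promoter windows of GRCm38.p6, which matched 8 of the 9 members (10 windows in all; Hes1 was not matched). Each gives the 250 bases before the start, 5′ to 3′ on the gene's strand. Capitals mark the letters of the RBPJ motif TGGGAA or of the N box CACNAG bound by HES factors, on either strand. The stretches are chr2:26503823-26504072 (minus strand) for Notch1, chr3:98013288-98013537 (plus strand) for Notch2 and chr5:53590096-53590345 (plus strand) for Rbpj, whose window lies before a start inside the gene.
Notch1: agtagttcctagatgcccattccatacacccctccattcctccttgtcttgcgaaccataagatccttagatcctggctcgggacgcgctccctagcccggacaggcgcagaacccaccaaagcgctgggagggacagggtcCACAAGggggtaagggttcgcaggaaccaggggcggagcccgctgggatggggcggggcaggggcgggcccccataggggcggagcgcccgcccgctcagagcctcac
Notch2: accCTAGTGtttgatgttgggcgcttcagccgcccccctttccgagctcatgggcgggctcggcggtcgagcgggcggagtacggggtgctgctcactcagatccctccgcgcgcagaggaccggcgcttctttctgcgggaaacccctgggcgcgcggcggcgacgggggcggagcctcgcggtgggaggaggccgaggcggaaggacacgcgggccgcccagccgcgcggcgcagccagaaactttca
Rbpj: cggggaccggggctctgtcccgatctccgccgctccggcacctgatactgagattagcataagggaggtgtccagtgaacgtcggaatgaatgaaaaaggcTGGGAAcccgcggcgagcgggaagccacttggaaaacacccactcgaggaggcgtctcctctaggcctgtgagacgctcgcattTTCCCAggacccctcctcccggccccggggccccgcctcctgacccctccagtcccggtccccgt

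Neither receptor window held TGGGAA. Notch1 held 3 N boxes in its window of 300 bases, at -108, -3 and -1 from the start; the last 2 overlap each other, cross the start and are not in capitals. Notch2 held 1, at -247. Rbpj held TGGGAA on the plus strand at -149 and its reverse complement at -65, and a second, overlapping Rbpj window held the latter again. The Maml2 windows held 1 RBPJ motif, and none of the 10 member windows held the longer form GTGGGAA. In all, 3 of 10 member windows held the RBPJ motif, beside 25.6% of 32851 windows of the same length, and 5 of 10 held an N box, beside 42.5%. The longer form occurs in 6.38% of all windows. These are matches of letters, not sites shown to be bound.

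The balance between the 2 receptors was read within each library, where scaling between libraries plays no part. Notch2 gave 71.3% of the summed Notch1 and Notch2 counts in ILC3 replicate 1 (exact Clopper-Pearson 95% interval 67.3% to 75.1%), 57.6% in replicate 2 (49.7% to 65.2%) and 71.1% in replicate 3 (63.9% to 77.6%). In CD4 T it gave 43.3% in replicate 1 (40.9% to 45.8%) and 39.1% in replicate 2 (35.0% to 43.3%). No ILC3 interval reached a CD4 T interval; these intervals cover counting error only. The mean share was 66.7% ± 7.88 in ILC3 (SD, n = 3) and 41.2% ± 2.99 in CD4 T (SD, n = 2), a difference of 25.5 percentage points (exact two-sided permutation p = 0.1). With 3 libraries against 2, 0.1 is the smallest p the 10 arrangements can give, so the design cannot reach the threshold of 0.05.

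**Figure D2:**
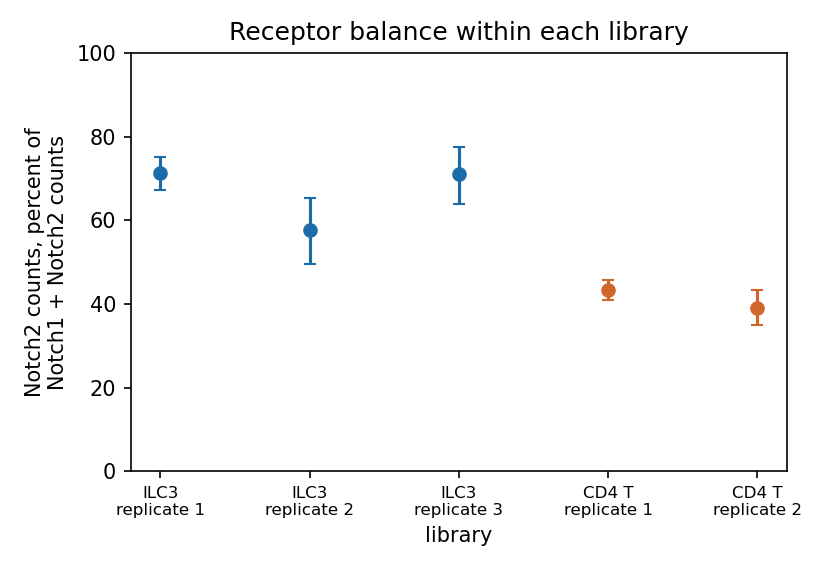
Notch2 counts as a percentage of Notch1 plus Notch2 counts in each library, with exact 95% intervals from counting error; blue is ILC3 and orange CD4 T. The 3 ILC3 libraries lie between 57.6% and 71.3% and the CD4 T libraries at 43.3% and 39.1%.

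Adam10 (NCBI gene 11487, chromosome 9, 70678944 to 70780229), the protease of the ligand-dependent cut, went the other way without passing the test. It was 13.3, 6.60 and 12.7 CPM in ILC3 and 4.76 and 6.82 CPM in CD4 T. ILC3 replicate 2 lay between the CD4 T libraries. The log2 difference was 0.91 (SE 0.61, edgeR adjusted p = 0.351), and it kept its sign under all 14 alternatives.

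None of the 3 nuclear mediators passed the test. Rbpj (NCBI gene 19664, chromosome 5, 53555779 to 53657445), the DNA-binding factor of the pathway, was 32.0, 35.0 and 33.2 CPM in ILC3 and 51.9 and 30.8 CPM in CD4 T. Relative to their mean, its ILC3 values were the tightest of all members (33.4 ± 1.55 CPM, SD, n = 3), and they lay between the CD4 T values. The log2 difference, -0.31 with an SE of 0.33 (edgeR adjusted p = 0.571), changed sign without CD4 T replicate 1 (0.12). Maml1 (NCBI gene 103806, chromosome 11, 50255634 to 50293131), a Mastermind coactivator, was 36.2, 26.3 and 36.8 CPM in ILC3 and 31.6 and 29.3 CPM in CD4 T. Both CD4 T values fell inside the ILC3 range, and the log2 difference was 0.12 with an SE of 0.32 (edgeR adjusted p = 0.835), or -0.36 with library size alone.

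Maml2 (NCBI gene 270118, chromosome 9, 13296561 to 13709533), another Mastermind coactivator, was 3.90, 6.34 and 10.6 CPM in ILC3 and 18.6 and 17.7 CPM in CD4 T. The CD4 T libraries agreed closely and both were above every ILC3 library. The log2 difference of -1.38 (SE 0.57) nevertheless missed the threshold (edgeR adjusted p = 0.145), and over the alternatives its adjusted p ran from 0.0594 to 0.324.

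Targets of the pathway were read as Hes1, Dtx1 and Nrarp. Hes1 (NCBI gene 15205, chromosome 16, 30065357 to 30067796), a transcriptional repressor that RBPJ complexes induce, was 45.7, 60.0 and 78.4 CPM in ILC3 and 205 and 53.4 CPM in CD4 T. CD4 T replicate 1 stood far above all other libraries, while CD4 T replicate 2 lay inside the ILC3 range. The log2 difference was -1.08 (SE 0.56, edgeR adjusted p = 0.229). Leaving out CD4 T replicate 1 turned its sign (0.21, edgeR adjusted p = 0.798). Leaving out CD4 T replicate 2 moved it to -1.73 (edgeR adjusted p = 0.0267), but that fit sets the single high CD4 T library against ILC3, and its spread comes from the 3 ILC3 libraries alone.

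Dtx1 (NCBI gene 14357, chromosome 5, 120680203 to 120711867) encodes Deltex1, a ubiquitin ligase that binds the Notch intracellular part. It was 16.0, 6.47 and 6.25 CPM in ILC3 and 7.45 and 6.82 CPM in CD4 T. ILC3 replicate 1 was the high library, and the 2 other ILC3 libraries were below both CD4 T libraries. The log2 difference, 0.42 with an SE of 0.67 (edgeR adjusted p = 0.709), was -0.18 without ILC3 replicate 1.

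Nrarp (NCBI gene 67122, chromosome 2, 25180758 to 25183339) encodes an ankyrin repeat protein that limits Notch signalling. Its counts were 42 in ILC3 replicate 1, 1 in replicate 2 and 0 in replicate 3, then 0 and 1 in the CD4 T pair, so it did not pass the filter. In CPM this is 1.52 in ILC3 replicate 1 and at most 0.0641 in any other library, under the limit that a count of 0 allows. Summed over each group and divided by library size, ILC3 exceeded CD4 T by a factor of 31.1 with a counting interval of 5.29 to 1256, and it came from 1 library. Dtx1 and Nrarp thus shared their highest library, ILC3 replicate 1. Among the ILC3 libraries, that library was also the highest for Notch1, Notch2 and Adam10 and the lowest for Rbpj, Hes1 and Maml2. Immunoglobulin and T cell receptor segment genes took 6.55% of its counts, against 29.8% and 24.2% in ILC3 replicates 2 and 3; the part of this in the members' values was not tested.

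Of the CD4 T libraries, replicate 1 was above replicate 2 for 7 of the 9 members, all but Adam10 and Nrarp. Between replicates 1 and 2, plasmacytoid dendritic cell genes summed to 4587 and 4036 CPM, macrophage and monocyte genes to 2140 and 3095 CPM, and T cell genes to 1399 and 3293 CPM. Of the 10 T cell genes, all but Cd4, the sorting marker (142 and 90.1 CPM), were lower in replicate 1, while the plasmacytoid and macrophage lists each held genes that were higher and genes that were lower there. The part of these cells in the members' values was not tested.

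**Figure D3:**
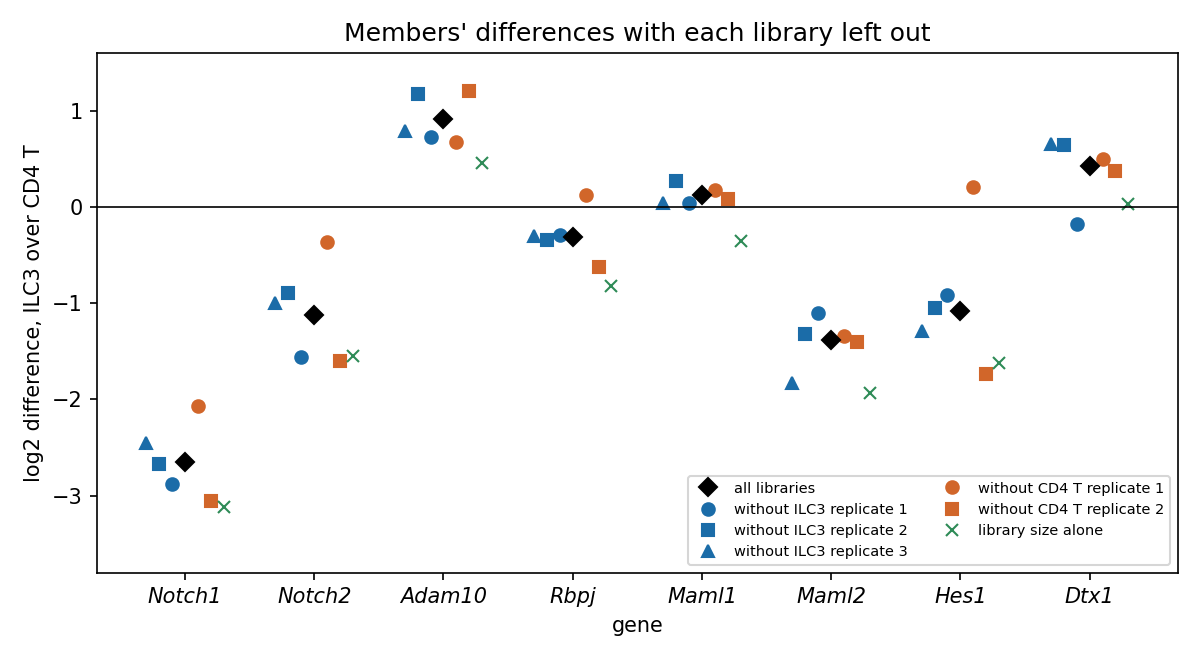
Log2 difference (ILC3 over CD4 T) of the 8 tested members with all libraries (black), with each library left out and with library size alone. Notch1 stayed between -3.12 and -2.06, whereas Hes1 ran from -1.73 without CD4 T replicate 2 to 0.21 without CD4 T replicate 1.

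Levels of different genes were compared per length, as CPM per kilobase of the longest coding transcript in GENCODE M21. In ILC3 the order was Hes1 (41.8 ± 11.2, SD, n = 3), Rbpj (6.09 ± 0.282), Maml1 (5.99 ± 1.07), Dtx1 (2.37 ± 1.38), Adam10 (2.37 ± 0.808), Maml2 (1.09 ± 0.533), Notch2 (0.867 ± 0.389), Notch1 (0.458 ± 0.131) and Nrarp (0.204 ± 0.332). Only the steps from Hes1 to Rbpj and from Maml1 to Dtx1 separated the libraries of neighbouring genes. In CD4 T, Hes1 (88.2 ± 73.2, SD, n = 2), Rbpj (7.54 ± 2.72) and Maml1 (5.52 ± 0.292) again led. Notch1 came next at 2.89 ± 1.36, followed by Maml2 (2.83 ± 0.0931), Notch2 (1.89 ± 1.09), Dtx1 (1.77 ± 0.11), Adam10 (1.26 ± 0.318) and Nrarp (0.0105 ± 0.0148). Here Rbpj and Maml1, Notch1 and Maml2, and Notch2 and Dtx1 overlapped as neighbours. Notch1 therefore ranked 4 in CD4 T and 8 in ILC3, and Hes1 was first in both.

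Beyond the members, 65 further genes of the pathway were read by role, and 57 of them were tested. Of these, 4 were higher and 3 lower in ILC3, with a median log2 difference of -0.53 (-0.10 for all tested genes). Library size alone gave 2 higher and 9 lower, and shifted the median of all genes to -0.60. The libraries did not overlap for 39 of the 57, against 55.0% of all genes. The called counts are near the background shares of 6.46% and 7.21%. The lists by role below are small, and their called counts are no result about a role. A list that was chosen with results known carries no test here.

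Among the ligands, Dll1 and Dll4, both Delta-like ligands that activate Notch receptors, were found in opposite groups. Dll1 was 7.97, 5.06 and 11.5 CPM in ILC3 and had no count in either CD4 T library, at least 119.8-fold higher in ILC3 against 3 counts over the CD4 T group (edgeR adjusted p = 0.0138). Dll4 had no count in any ILC3 library and was 1.74 and 6.34 CPM in CD4 T, at least 74.2-fold lower in ILC3 (edgeR adjusted p = 0.0468). Removing ILC3 replicate 1 ended the Dll1 call (edgeR adjusted p = 0.0526), as did the replicate block (0.0637). The Dll4 call was lost when any 1 library was left out (edgeR adjusted p from 0.0729 to 0.155) and with the block (0.172). Jag1, a Jagged ligand, was 3.86, 4.74 and 5.03 CPM in ILC3 and 1.43 and 0.866 CPM in CD4 T and did not pass (log2 1.98, edgeR adjusted p = 0.19). Jag2 overlapped between the groups, and Dll3 had 2 counts in all, both in CD4 T.

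The remaining receptors were near the floor. Notch3 had 0, 0 and 1 counts in ILC3 and 45 and 27 in CD4 T, 99.6 times less in ILC3 per summed library size (counting interval from 17.3 up to 3987), and did not pass (edgeR adjusted p = 0.0644). It passed in limma-voom (adjusted p = 0.0422) and in the DESeq2 Wald test (adjusted p = 0.028). Notch4 had 0, 2 and 3 counts in ILC3 and 1 and 3 in CD4 T.

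None of the 6 genes that fit receptors with sugars or cut them in the Golgi was called, beside 13.7% of all tested genes. The protease gene Furin was 59.5, 56.0 and 43.4 CPM in ILC3 and 44.8 and 52.4 CPM in CD4 T (log2 difference 0.12 at an edgeR adjusted p = 0.812, and -0.36 with library size alone). Poglut1, a glucosyltransferase, was 9.63, 7.05 and 7.89 CPM in ILC3 and 28.7 and 7.69 CPM in CD4 T (log2 difference -1.15 at an edgeR adjusted p = 0.256; 0.10 once CD4 T replicate 1 was removed). As with Hes1, CD4 T replicate 1 alone stood above the rest.

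Of the 8 genes of ADAM17 and gamma-secretase, 1 was lower (7.21% of all genes) and 0 were higher (6.46% of all genes) in ILC3. Adam17, a protease known for ligand-independent cutting of Notch and for shedding of TNF, was 8.15, 22.3 and 21.2 CPM in ILC3 and 96.4 and 85.1 CPM in CD4 T. Both CD4 T libraries were far above the ILC3 libraries, and the log2 difference was -2.40 with an SE of 0.47 (edgeR adjusted p = 0.0234). Removing ILC3 replicate 2 (edgeR adjusted p = 0.0593) or 3 (0.0558), or CD4 T replicate 1 (0.092), ended the call, as did the replicate block (0.0617). None of the other genes of this list passed the test.

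Coactivators other than the members had 1 of 6 genes higher (6.46% of all genes) and 0 lower (7.21% of all genes). Snw1, which encodes the SKIP protein found in RBPJ complexes and in the spliceosome, was 58.5, 36.9 and 56.6 CPM in ILC3 and 19.9 and 14.7 CPM in CD4 T, so the log2 difference was 1.55 with an SE of 0.37 (edgeR adjusted p = 0.0406). The groups did not overlap, but the call was lost when any 1 library was left out (edgeR adjusted p from 0.07 to 0.107), with library size alone (0.166) and with the replicate block (0.134). None of 13 corepressor genes was called, beside 13.7% of all tested genes. Ncor1, a scaffold of histone deacetylase complexes, was 158, 120 and 155 CPM in ILC3 and 85.8 and 89.8 CPM in CD4 T (log2 0.72, edgeR adjusted p = 0.126). Kdm5a, a histone demethylase, was 97.1, 68.2 and 86.8 CPM in ILC3 and 145 and 134 CPM in CD4 T (log2 -0.73, edgeR adjusted p = 0.121). Both passed in the DESeq2 Wald test (adjusted p = 0.0357 and 0.0498), which called more of all genes than edgeR did.

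None of the 10 tested ubiquitin ligase and endocytic genes was called, beside 13.7% of all tested genes. Cul3, a scaffold of ubiquitin ligases, was 142, 105 and 120 CPM in ILC3 and 53.4 and 99.5 CPM in CD4 T (log2 0.68, edgeR adjusted p = 0.237). Without CD4 T replicate 2 the value was 1.21 (edgeR adjusted p = 0.0491), from a fit with 1 CD4 T library and no spread of its own for that group. Dtx4, a relative of Dtx1, was 36.1, 54.8 and 56.8 CPM in ILC3 and 58.6 and 56.7 CPM in CD4 T (log2 -0.23, edgeR adjusted p = 0.662).

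Among the relatives of Hes1, 3 of 8 were tested and 0 were called, beside 13.7% of all tested genes. Hey1, a repressor of the same family, was 16.5, 22.6 and 4.85 CPM in ILC3 and 4.20 and 0.812 CPM in CD4 T. All ILC3 libraries were above the CD4 T libraries, though replicate 3 only just, and the log2 difference of 2.54 (SE 1.01) did not pass (edgeR adjusted p = 0.135), whereas the DESeq2 Wald test called it (adjusted p = 0.0328). Leaving out CD4 T replicate 1 gave 4.17, and leaving out CD4 T replicate 2 gave 1.81. Hes6 overlapped between the groups (log2 -0.23, edgeR adjusted p = 0.834). Hes5, a classical Notch target, had 40 counts in CD4 T replicate 1 and 0 in every other library.

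Of the 9 tested lymphoid genes known as Notch targets, 2 were higher in ILC3 (6.46% of all genes), 1 was lower (7.21% of all genes) and 6 did not pass. Il2ra, the alpha chain of the IL-2 receptor, was 490, 380 and 365 CPM in ILC3 and 31.6 and 65.8 CPM in CD4 T (log2 3.08, edgeR adjusted p = 0.0101). Its log2 difference ran from 2.62 to 3.72 over the 14 alternatives, and its call held in every fit with both CD4 T libraries. Tcf7, which encodes TCF-1, was 110, 69.4 and 95.9 CPM in ILC3 and 4.08 and 21.2 CPM in CD4 T, so the log2 difference was 2.86 with an SE of 0.72 (edgeR adjusted p = 0.047). Bcl11b, a factor of T lineage commitment, was 2.06, 3.97 and 2.28 CPM in ILC3 and 15.3 and 22.5 CPM in CD4 T, so the log2 difference was -2.77 with an SE of 0.59 (edgeR adjusted p = 0.0307). The call of Bcl11b was lost when any 1 library was left out (edgeR adjusted p from 0.0641 to 0.0871) and with the replicate block (0.124). That of Tcf7 ended on removal of ILC3 replicate 1, 2 or 3 (edgeR adjusted p = 0.105, 0.0893 and 0.0886), with library size alone (0.0675) and with the block (0.105), and removing CD4 T replicate 2 raised its log2 difference to 4.50.

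**Figure D4:**
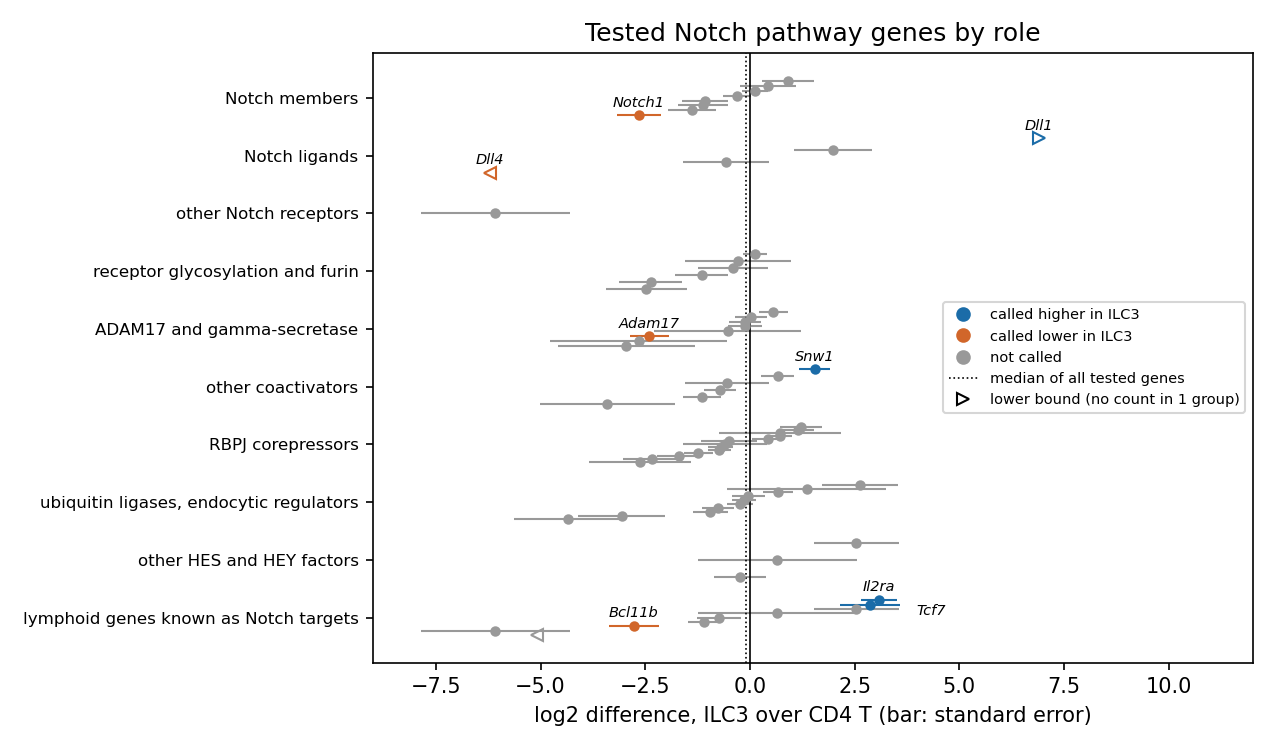
Log2 difference (ILC3 over CD4 T) with its standard error for each tested pathway gene, in rows by role; blue and orange mark genes called higher and lower in ILC3, grey those not called, and open triangles lower bounds for genes with no count in 1 group. Notch3, Hey1 and Heyl stand in 2 rows, and the dotted line is the median of all tested genes at -0.10.

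For each receptor, the 3 genes with the most similar pattern over the 5 libraries were taken from 4716 genes of at least 20 CPM on average, by the root mean square difference of centred log2 CPM. For Notch1 these were Inpp5d, the lipid phosphatase SHIP1 (0.125), Unc93b1, a chaperone of endosomal Toll-like receptors (0.148), and Psmd3, a proteasome subunit (0.157). For Notch2 they were Rcc2 (0.0773), Cmtm6 (0.147) and Hcfc1 (0.16). The choice by likeness fixes the direction of these genes, so no test is given for them, and with 5 libraries the likeness is a description only.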

How the data were processed

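Whole-number counts per gene, without normalization, were deposited by the authors for the 3 ILC3 and 2 CD4 T libraries. Per the labels' protocols, cDNA was made with the SMARTer Ultra Low Input kit. The submitters' processing notes name STAR 2.3.0 and CASAVA 1.8.2, with the build mm10. How counting was done, with which annotation and strand setting, is not given in the sources used here. Overlapping and antisense genes can therefore not be told apart. NCBI identifiers were matched to RefSeq symbols of GRCm38.p6 (25275 of 27179).

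The whole table was fitted with edgeR 4.0.16 in R 4.3.3 (filterByExpr, TMM, quasi-likelihood F test, 3 residual degrees of freedom, no covariate), with Benjamini-Hochberg adjustment over 12747 genes and a call at an adjusted p under 0.05. The SE is the log2 difference divided by the square root of F. Positive log2 differences are higher in ILC3. The script was tested on simulated data. Alternatives were other scalings and filters, DESeq2 1.42.0, limma-voom (limma 3.58.1), removal of receptor segment genes, a replicate block and each library left out.

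The members and the gene lists were chosen with earlier results of these data known. All members are named, and from each list up to 4 called genes with the smallest p, or the 2 with the highest mean CPM where none was called, plus the 3 genes most like each receptor. Cd3d, Cd3e, Cd3g, Cd247, Cd4, Cd8a, Cd8b1, Lyz1, Pecam1, Jag1, Jag2, Dll3 and Hes5 were named after their values were seen.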

Additional observations from a re-analysis of the deposited data

How the results depend on the processing

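For the 8 tested members, 102 of 112 values under the alternatives kept their direction and their side of the threshold, 5 lost a call, 1 gained one and 4 changed sign. For the 16 other named genes these numbers were 183, 30, 6 and 5 of 224. The changes of sign were those of Rbpj (0.12), Hes1 (0.21) and Poglut1 (0.097) without CD4 T replicate 1, Dtx1 without ILC3 replicate 1 (-0.18), Maml1 (-0.36) and Furin (-0.36) with library size alone, and Hes6 in limma-voom (0.018), with the replicate block (0.0074) and without CD4 T replicate 2 (0.60), none of them called. When 1 library was left out, Rbpj ran from -0.62 to 0.12, Hes1 from -1.73 to 0.21, Dtx1 from -0.18 to 0.66, Poglut1 from -1.79 to 0.097 and Hes6 from -0.75 to 0.60. The number of members lower, 1 of 8, ran from 0 to 2 when 1 library was left out (the 2, Notch1 and Hes1, come from the fit with CD4 T replicate 1 as its only CD4 T library), and 0 were higher under every alternative. Of the 65 other genes, 1 to 5 were higher and 0 to 4 lower when 1 library was left out; 2 and 9 with library size alone, 9 and 14 in the DESeq2 Wald test, 4 and 7 in limma-voom. Over all genes, 824 were higher and 919 lower; 384 and 1502 with library size alone, 1250 and 1378 with no filter on low counts, 1914 and 1858 in the DESeq2 Wald test, 1317 and 1402 in limma-voom, and from 269 to 1712 higher and from 306 to 960 lower when 1 library was left out. The Notch2 share differed by 23.1 to 30.0 percentage points when 1 library was left out. With the replicate number as a block, 215 genes were higher and 305 lower, 0 members were lower, and 1 of the 65 other genes was higher and 0 lower. The labels do not say that numbers pair the libraries, and deviations of same-numbered libraries correlated at -0.018 and -0.027. With 2 CD4 T libraries, the deviations of 1 mirror those of the other. Each ILC3 library therefore correlates with both at the same size and opposite sign, so the correlations cannot decide on pairing. The cause of the changes between settings was not tested. Fits with a library left out or with the block also have fewer libraries or residual degrees of freedom. Without a filter, Nrarp had a log2 difference of 4.11 (edgeR adjusted p = 0.458). Notch1 rests on 52 to 153 counts per ILC3 library, which limits its precision there.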

Other observations

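Pairs of related genes of the pathway were also compared within each library, where scaling plays no part; these pairs were chosen after their values were seen and carry no test. Among the counts of the sheddase genes Adam10 and Adam17, Adam10 took 62.0% in ILC3 replicate 1 (exact Clopper-Pearson 95% interval 58.0% to 65.9%), 22.8% in replicate 2 (19.0% to 27.0%) and 37.4% in replicate 3 (33.5% to 41.5%). In CD4 T it took 4.70% in replicate 1 (3.91% to 5.60%) and 7.42% in replicate 2 (6.22% to 8.77%). All ILC3 libraries thus lay above both CD4 T libraries, and the ILC3 libraries differed among themselves by more than counting error.

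Between the Mastermind genes, Maml1 took 90.3%, 80.6% and 77.6% of the summed Maml1 and Maml2 counts across the ILC3 libraries, and 63.0% and 62.4% in the CD4 T pair. The CD4 T intervals overlapped each other (60.3% to 65.7% and 59.1% to 65.6%), and the lowest ILC3 interval, 74.6% to 80.4%, was above both.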
